A study of Mus musculus with 12 samples.

Results

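The 10 iron and heme handling genes described here are Slc11a2, Cybrd1, Heph, Slc40a1, Hamp, Tfrc, Steap4, Fth1, Ftl1 and Hmox1. They were taken by gene symbol from a deposited table of 54532 genes, though the list was drawn up with earlier results of these data known. All 10 were in the table and all 10 passed the filter on low values. Whole colon tissue of mice was sequenced as poly(A)-selected RNA in 12 libraries, with 4 groups of 3. The Tmem173fl/fl mice, labelled WT, carried floxed alleles of Tmem173, the gene of the DNA-sensing adaptor STING, without a Cre. Tmem173iΔmye mice, labelled CRE, carried the same floxed alleles with a tamoxifen-inducible Cre expressed from the Lyz2 gene, which is active in macrophages, neutrophils and other myeloid cells. All mice, the Cre-free ones included, had received 5 tamoxifen injections and were 6 to 8 weeks old. For each genotype, a colitic group was given dextran sulfate sodium (DSS), a polymer that injures the colonic epithelium, in the drinking water for 7 days, and an untreated group was not. The comparisons address how the colon's transcripts for taking up, storing, exporting and recycling iron differed with colitis, and between the genotypes in colitis. Since the Tmem173fl/fl mice had no Cre, the presence of the Cre and the loss of STING cannot be told apart. The study reports milder colitis in the Tmem173iΔmye mice, so genotype and severity of injury cannot be told apart in the colitic groups.

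Dietary iron is reduced at the apical membrane of the enterocyte by ferrireductases such as CYBRD1 and enters through the divalent metal transporter SLC11A2. It leaves at the basolateral side through ferroportin, SLC40A1, with help of the ferroxidase HEPH, and the hormone hepcidin, encoded by Hamp, removes ferroportin from the membrane. Other cells take up transferrin-bound iron through the transferrin receptor TFRC, and STEAP4 is a metalloreductase of epithelial, adipose and immune cells known to be induced by inflammatory cytokines. Spare iron is held in the ferritin shell of FTH1 and FTL chains. Heme oxygenase 1, HMOX1, opens the heme ring and frees its iron, and macrophages that engulf red blood cells use it to recycle hemoglobin iron. Several of these messages are controlled after transcription by iron regulatory proteins, which bind a hairpin, the iron-responsive element. Bound at the 5′ end of a message the proteins block translation, and bound at the 3′ end they stabilise it.

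The hairpin letters were searched in the untranslated regions (UTRs) of GENCODE M21 transcripts, and the matches are shown because iron regulatory proteins act on these messages through such hairpins. The pattern was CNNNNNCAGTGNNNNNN, read on the transcript strand, with the 5 bases before and the 5 bases after the loop able to pair and G-T pairs allowed. The loop is in capitals, the sequences are written 5′ to 3′ as DNA, and positions are on GRCm38.
Fth1, 5′ UTR, chr19:9982733-9982759, plus strand: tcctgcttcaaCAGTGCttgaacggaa
Ftl1, 5′ UTR, chr7:45459780-45459806, minus strand: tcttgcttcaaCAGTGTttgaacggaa
Slc40a1, 5′ UTR, chr1:45925466-45925492, minus strand: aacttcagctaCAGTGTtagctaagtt
Tfrc, 3′ UTR, chr16:32631220-32631246, plus strand: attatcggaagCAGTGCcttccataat
Tfrc, 3′ UTR, chr16:32631599-32631625, plus strand: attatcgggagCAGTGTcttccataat
Tfrc, 3′ UTR, chr16:32631664-32631690, plus strand: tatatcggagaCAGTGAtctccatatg
Tfrc, 3′ UTR, chr16:32631711-32631737, plus strand: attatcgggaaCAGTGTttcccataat
Of 21877 protein-coding genes, 30 (0.137%) held such a match in a 5′ UTR and 129 (0.59%) in a 3′ UTR, whereas 4 of the 10 members did. The match lay in the 5′ UTR of 4 of 5 annotated coding transcripts of Fth1, 1 of 2 of Ftl1 and 1 of 4 of Slc40a1, and 1 of 3 of Tfrc held 4 copies in the 3′ UTR. Which transcript the counts came from was not measured. In the other 6 members these letters were not found in the UTRs of the transcripts searched. The pattern requires all 5 pairs, so a hairpin with an unpaired base there would be missed. A match is a description of the sequence, and RNA levels do not report the translation that a 5′ hairpin controls.

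The libraries held 13823237 to 18718915 assigned counts. On principal components of log2(FPKM + 0.1), the colitic Tmem173iΔmye replicate 5 stood apart, at -113.9 on the second component (10.29% of the variance) against -26.52 to 31.56 for the other 11. On the first component (38.95%) this library was at -32. The untreated libraries were at -72.95 to -47.55 there and the other colitic ones at 15.55 to 119.8. Counts of Xist and of Y-linked genes gave a female pattern in 3 libraries, the third replicate of each untreated group and replicate 5 of the colitic Tmem173iΔmye group, and a male pattern in 9. The targeted gene did not separate the genotypes: Tmem173 was at 42.42, 43.98 and 37.65 counts scaled to library size (CPM) in the colitic Tmem173fl/fl libraries and at 47.82, 23.77 and 31.08 CPM in the colitic Tmem173iΔmye ones. The Tmem173 values therefore do not check the genotype labels. Lyz2, from which the Cre is expressed, was lower on the means in Tmem173iΔmye mice. It was at 193.1 ± 72.77 CPM (SD, n = 3) in untreated Tmem173fl/fl and 95.18 ± 19.19 CPM in untreated Tmem173iΔmye libraries, a difference not called. In colitis it was at 439.2 ± 90.38 and 302.4 ± 64.34 CPM. Colonocyte and epithelial markers (Epcam, Cdh1, Krt8 and 6 others) summed to 5084 to 14500 CPM, so every library held epithelium. Pancreatic markers, summed, ranged from 102.5 to 8061 CPM without following the groups. The labels do not say whether the libraries of a group came from separate animals, and the p-values measure the spread between these libraries.

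The members differed widely in level. Per length, as FPKM (fragments per kilobase of transcript, scaled to library size), the untreated Tmem173fl/fl colon carried Fth1 at 912.9 ± 118.9 (SD, n = 3) and Ftl1 at 188.6 ± 11.5, followed by Tfrc at 33.5 ± 5.6, Heph at 29.2 ± 1.2 and Slc40a1 at 16.6 ± 3.4. Slc11a2 was at 7.28 ± 0.80, Hmox1 at 3.52 ± 0.50, Steap4 at 3.29 ± 1.06 and Cybrd1 at 0.745 ± 0.302. The ranges of neighbours in this order were separate except between Tfrc and Heph and between Hmox1 and Steap4. In the untreated Tmem173iΔmye colon the order was the same but for Steap4, at 4.90 ± 1.95 FPKM, before Hmox1, at 4.36 ± 0.81 FPKM, with overlapping ranges. In the colitic Tmem173fl/fl colon Hmox1 (106 ± 61.8 FPKM) and Steap4 (55.3 ± 9.3 FPKM) ranked next after the ferritin chains, above Slc40a1, Tfrc and Heph, and their own ranges overlapped. In the colitic Tmem173iΔmye colon Hmox1 stood at 12.2 ± 2.7 FPKM, below Steap4 at 27.6 ± 4.5 FPKM.

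**Figure D1:**
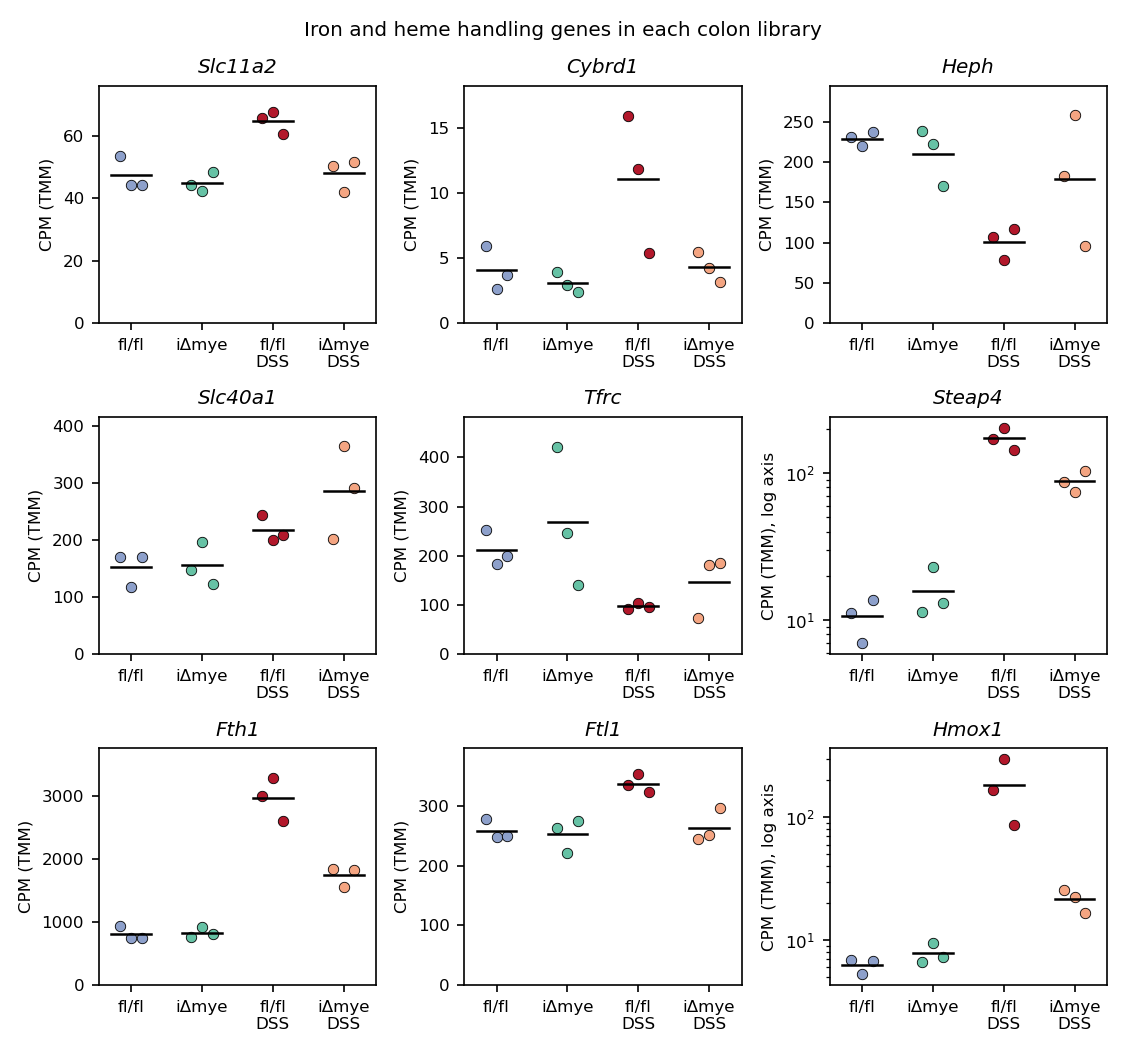
CPM (TMM-scaled) of the 9 members above the count floor, 1 point per library and a line at each group's mean, in untreated and DSS-treated Tmem173fl/fl (fl/fl) and Tmem173iΔmye (iΔmye) colons. The Steap4 and Hmox1 axes are logarithmic. Hmox1 reached 85.9 to 299.6 CPM in the colitic fl/fl libraries and 16.7 to 25.8 CPM in the colitic iΔmye ones.

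In Tmem173fl/fl mice colitis raised the transcripts of the heme-degrading enzyme Hmox1, the metalloreductase Steap4, the ferritin heavy chain Fth1 and the ferrireductase Cybrd1, and lowered those of the ferroxidase Heph and the transferrin receptor Tfrc. These 6 members were called, which means that edgeR's quasi-likelihood test gave an adjusted p under 0.05 with a change of at least 1 on the log2 scale, in either direction. Across all 24102 genes tested 22.5% were called, 14.9% higher and 7.61% lower. The median log2 fold change of the 9 members above the count floor was 0.58, against 0.03 over all genes tested. In 6 of these 9 every colitic library lay above every untreated one and in 2 every one lay below, while 49.3% of all genes tested showed groups without overlap, 23.9% higher and 25.4% lower.

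Slc11a2, the apical iron importer, was at 53.6, 44.3 and 44.3 CPM in the untreated and at 65.6, 67.8 and 60.6 CPM in the colitic Tmem173fl/fl libraries. The groups did not overlap, but the log2 fold change of 0.52 ± 0.13 (SE, edgeR adjusted p = 0.0119) was below the fold threshold. Cybrd1, the duodenal-type ferrireductase, was low throughout, at 5.91, 2.64 and 3.70 CPM untreated and 15.9, 11.8 and 5.38 CPM in colitis. Its log2 fold change was 1.51 ± 0.41 (SE, edgeR adjusted p = 0.0167), although the lowest colitic library lay within the untreated range. Without untreated replicate 2 or 3, or colitic replicate 1, its adjusted p was 0.0603, 0.0679 and 0.0715, and limma gave 0.0817 and 0.073 with pseudocounts of 0.1 and 1, so this call was lost in each.

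Heph, the ferroxidase of the basolateral membrane, fell. It was at 231.1, 220.4 and 237 CPM in the untreated and at 107.4, 78.5 and 117 CPM in the colitic Tmem173fl/fl libraries, a log2 fold change of -1.12 ± 0.17 (SE, edgeR adjusted p = 0.00062). Slc40a1, the exporter that works with it, was at 170.7, 116.8 and 171.1 CPM untreated and at 243.9, 200.4 and 208.4 CPM in colitis. Its log2 fold change of 0.58 ± 0.18 (SE, edgeR adjusted p = 0.0318) was below the fold threshold. The exporter and its partner ferroxidase thus lay on opposite sides of their untreated levels. Epithelial markers, summed, were at 11940 to 14430 CPM in the untreated and at 5084 to 8099 CPM in the colitic Tmem173fl/fl libraries, and 8 of the 9 were called lower and 1 higher. In bulk tissue fewer cells of a type and less RNA per cell cannot be told apart, and the part of these markers in the lower Heph was not tested.

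Hamp, the hepcidin gene, which the liver expresses, was at or near the floor of 3 counts per library throughout. It had 3, 0 and 0 counts in the untreated and 1, 2 and 1 in the colitic Tmem173fl/fl libraries, 0 in each untreated Tmem173iΔmye library, and 4, 0 and 4 in the colitic ones. No fold is given, and a change in colonic Hamp was not detectable at this depth.

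Tfrc, the uptake receptor for transferrin-bound iron and a marker of dividing cells, was at 253.1, 184.1 and 199.6 CPM untreated and at 91.6, 102.8 and 96.2 CPM in the colitic Tmem173fl/fl libraries. Every colitic library was below every untreated one, with a log2 fold change of -1.06 ± 0.16 (SE, edgeR adjusted p = 0.000557). Both Tfrc and Heph passed the fold threshold by a small margin. Tfrc was at -0.92 without untreated replicate 1, and Heph was at -0.98 without colitic replicate 2.

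Steap4 showed the second-largest change among the members. It was at 11.2, 6.97 and 13.7 CPM untreated and at 171.4, 203.1 and 143.5 CPM in colitis, 16.2-fold higher on the group means, with a log2 fold change of 4.09 ± 0.26 (SE, edgeR adjusted p = 3.48e-06). The colitic libraries were close to each other and far from all untreated ones. Some inducers of Steap4 act through the motifs searched here, and the gene was called in both genotypes. The stretch of its promoter next to the start site is therefore shown. It is RefSeq sequence of GRCm38.p6, chr5:7960322-7960456, plus strand, with a STAT match (TTCNNNGAA) and a C/EBP match (TTGCNNAA) in capitals, in this order.
Steap4 promoter: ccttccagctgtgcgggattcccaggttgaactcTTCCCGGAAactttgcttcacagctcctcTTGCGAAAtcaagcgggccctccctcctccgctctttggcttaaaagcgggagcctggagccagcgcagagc
Both strands were searched in windows from 250 bases before to 50 bases after the RefSeq start. The STAT letters were found in 8.3% and the C/EBP letters in 10.8% of 32851 promoter windows, the AP-1 letters TGANTCA in 7.81% and the antioxidant response letters TGANNNNGC in 41.3%. Other motifs, such as that of the transcription factor NF-κB, were not searched. Windows were found for 6 of the 10 members. The Steap4 window also held an antioxidant response match, which overlaps the C/EBP match, the Fth1 window 2 C/EBP matches, the Cybrd1 window an AP-1 and an antioxidant response match, and the Hamp window an AP-1 and a STAT match. The Tfrc and Ftl1 windows held none of these letters. No window was found for Hmox1, Slc40a1, Slc11a2 and Heph. The matches describe letters and are no evidence of a bound factor.

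The ferritin chains moved to different degrees. Fth1, the heavy chain with ferroxidase activity, was at 936.5, 749.6 and 747.4 CPM untreated and at 3000, 3295 and 2606 CPM in the colitic Tmem173fl/fl libraries, 3.66-fold higher on the means with a log2 fold change of 1.94 ± 0.17 (SE, edgeR adjusted p = 2.26e-05). Ftl1, the light chain, was at 278.5, 249.4 and 249.8 CPM and at 335.9, 355.3 and 323.5 CPM. Its groups did not overlap, and its log2 fold change of 0.45 ± 0.14 (SE, edgeR adjusted p = 0.0261) was below the fold threshold. The ratio of Fth1 to Ftl1, in FPKM, was 4.83 ± 0.33 (SD, n = 3) untreated and 13.5 ± 1.0 in colitis, without overlap (two-sided exact permutation p = 0.1, the smallest that 3 against 3 allows). Ferritin has near-identical copies in the mouse genome, and reads could be split among them. The copy Ftl1-ps1 had 829 counts over the 12 libraries and Fth-ps2 had 18, so both ferritin values carry that uncertainty.

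Hmox1 changed most of the members. It was at 6.89, 5.28 and 6.76 CPM in the untreated and at 166.5, 299.6 and 85.9 CPM in the colitic Tmem173fl/fl libraries. The colitic libraries differed by more than 3-fold among themselves and all lay far above the untreated ones. The group means differed 29.15-fold, with a log2 fold change of 4.93 ± 0.43 (SE, edgeR adjusted p = 2.15e-05). Leaving out any 1 library moved it between 4.37 and 5.26. Hmox2, the constitutive heme oxygenase, was at 26.1, 23.3 and 21.98 CPM and at 29.5, 28.7 and 26.8 CPM, a log2 fold change of 0.32 ± 0.14 (SE, edgeR adjusted p = 0.107), so Hmox1 alone of the pair was called.

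In Tmem173iΔmye mice, 3 members were called with DSS, all higher: Steap4, Hmox1 and Fth1. Over all genes tested 2.08% were called, 1.48% higher and 0.597% lower. Steap4 was at 11.3, 23.0 and 13.1 CPM untreated and at 86.6, 74.0 and 104 CPM in colitis, a log2 fold change of 2.48 ± 0.29 (SE, edgeR adjusted p = 0.00342). Hmox1 was at 6.68, 9.46 and 7.27 CPM and at 25.8, 22.3 and 16.7 CPM, a log2 fold change of 1.46 ± 0.27 (SE, edgeR adjusted p = 0.0237). Fth1 was at 764.3, 920.7 and 809.9 CPM and at 1848, 1561 and 1819 CPM, a log2 fold change of 1.06 ± 0.19 (SE, edgeR adjusted p = 0.0225). In all 3 genes every colitic library lay above every untreated one, as in 12.1% of all genes tested. The Hmox1 call was lost without any 1 untreated library (adjusted p = 0.104 to 0.177) or without colitic replicate 1 (0.0625) or 2 (0.059). The Fth1 call was lost without any 1 untreated library (0.123 to 0.184) or without colitic replicate 1 (0.0671). Under limma with a pseudocount of 0.1 none of the 3 was called (adjusted p = 0.0614 for Steap4, 0.11 for Hmox1 and 0.107 for Fth1). With a pseudocount of 1 limma called Steap4 (2.31, adjusted p = 0.0406) and Fth1 but not Hmox1 (0.0735).

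The other members were not called in Tmem173iΔmye mice, and for most of them the intervals were wide. Slc40a1 was at 147.8, 196.5 and 123.1 CPM untreated and at 201.3, 365.8 and 291.8 CPM in colitis. These groups did not overlap, and the log2 fold change was 0.88 (95% interval 0.29 to 1.46, edgeR adjusted p = 0.137). Tfrc was at 421, 245.8 and 141 CPM and at 72.6, 181 and 184.7 CPM, a log2 fold change of -0.88 (-1.82 to 0.05, edgeR adjusted p = 0.348). Heph was at 238.7, 222.5 and 170.9 CPM and at 183.4, 259 and 95.3 CPM, a log2 fold change of -0.24 (-0.95 to 0.47, edgeR adjusted p = 0.779). The lowest colitic Heph value belonged to replicate 5, the library that stood apart, and without it the log2 fold change was 0.09. Slc11a2 was at 44.2, 42.3 and 48.3 CPM and at 50.2, 41.9 and 51.7 CPM, Ftl1 at 264.6, 221.8 and 276.2 CPM and at 244.5, 251.4 and 297.9 CPM, and Cybrd1 at 3.88, 2.93 and 2.35 CPM and at 5.42, 4.23 and 3.16 CPM. Their groups overlapped, and the log2 fold changes were 0.09, 0.05 and 0.48. The ratio of Fth1 to Ftl1 was 5.14 ± 1.11 (SD, n = 3) untreated and 10.25 ± 1.26 in colitis, again without overlap (two-sided exact permutation p = 0.1, the smallest possible).

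**Figure D2:**
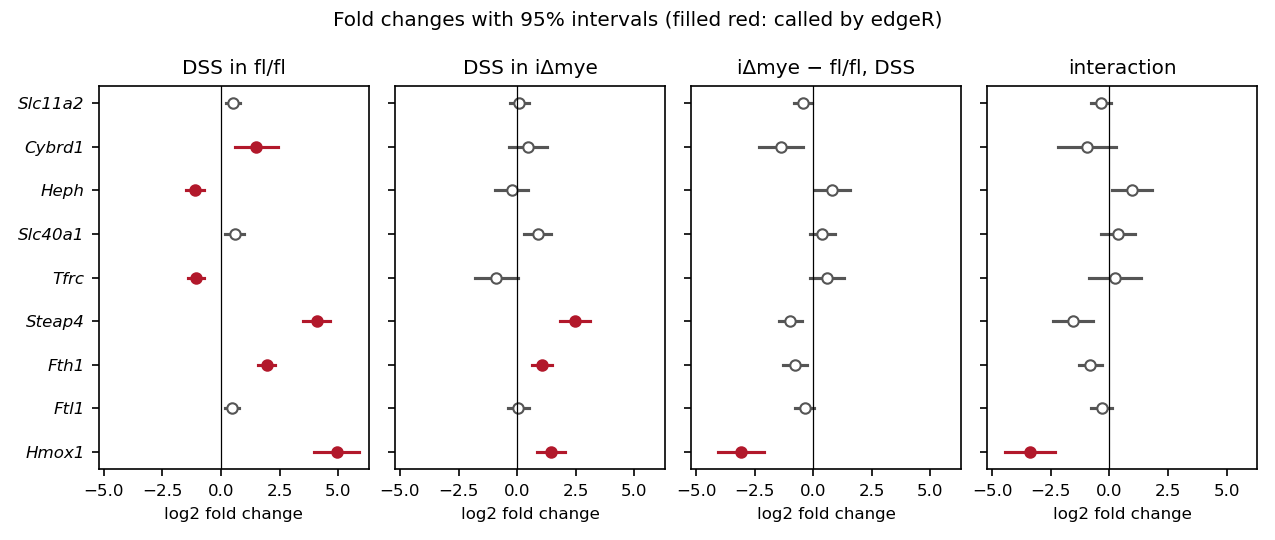
Log2 fold changes of 9 members with 95% intervals in 4 comparisons (DSS in each genotype, Tmem173iΔmye against Tmem173fl/fl with DSS, and the interaction), with calls by edgeR in filled red. Hmox1 is the only member called in all 4, at 4.93, 1.46, -3.10 and -3.40.

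Without DSS the genotypes did not separate in any member. None of the 10 was called by edgeR, DESeq2 or limma, and at an unadjusted p under 0.05 edgeR gave 0. The share called among all genes tested was also 0%. All 9 members above the floor had overlapping groups, where 7.35% of all genes tested had groups without overlap. The largest log2 difference, Tmem173iΔmye minus Tmem173fl/fl, was 0.58 (95% interval -0.052 to 1.203) for Steap4, and Hmox1 was at 0.31 (-0.20 to 0.83). These intervals do not exclude a modest difference.

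In colitis Hmox1 was lower in Tmem173iΔmye than in Tmem173fl/fl mice. The 16.7 to 25.8 CPM of the Tmem173iΔmye libraries lay below the 85.9 to 299.6 CPM of the Tmem173fl/fl ones, 8.52-fold apart on the means, with a log2 difference of -3.10 ± 0.43 (SE, edgeR adjusted p = 0.0167). It was the single member called, where 2.81% of all genes tested were called, 0.822% higher and 1.99% lower. The call was lost without Tmem173fl/fl replicate 1 (adjusted p = 0.0684) or Tmem173iΔmye replicate 2 (0.0727), with the difference at -3.15 and -3.11, and under limma (0.0505 and 0.0779). Tmem173iΔmye replicate 5 was the only colitic library of female pattern, so a sex covariate amounts to leaving it out. Among the 5 colitic libraries of male pattern the difference was -2.95 (edgeR adjusted p = 0.0348), and an effect of sex was not tested.

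Steap4, Fth1, Slc11a2 and Ftl1 also had every colitic Tmem173iΔmye library below every colitic Tmem173fl/fl one, which makes 5 of 9 members with Hmox1, while 26.8% of all genes tested had groups without overlap and 14.8% lay lower. Steap4 was 1.96-fold lower on the means, with a log2 difference of -0.98 ± 0.21 (SE, edgeR adjusted p = 0.0461), just under the fold threshold. Without Tmem173iΔmye replicate 5 it was called at -1.11 (0.0429), and without any other 1 library the difference was -0.83 to -1.08 with adjusted p = 0.0566 to 0.195, as limma gave 0.112 and 0.0618. Fth1 differed by -0.77 ± 0.22 (SE, edgeR adjusted p = 0.101), Slc11a2 by -0.44 ± 0.16 (0.186) and Ftl1 by -0.36 ± 0.18 (0.306). Cybrd1 differed by -1.38 ± 0.42 (SE, edgeR adjusted p = 0.114). Heph, at 0.82 ± 0.33 (0.219), Tfrc, at 0.58 ± 0.32 (0.348), and Slc40a1, at 0.38 ± 0.24 (0.402), lay on the higher side without a call. Epithelial markers, summed, were also higher in the colitic Tmem173iΔmye libraries without overlap, at 9203 to 12060 against 5084 to 8099 CPM, with a median log2 difference of 0.98. Of these 9, edgeR called 2 higher, DESeq2 5 and limma 0, and 8 lay higher at an unadjusted p under 0.05 in edgeR, and their part in Heph was not tested. The ratio of Fth1 to Ftl1 was lower in the Tmem173iΔmye libraries without overlap (two-sided exact permutation p = 0.1, the smallest possible).

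The interaction asks whether the DSS response itself differed between genotypes. Hmox1 was the single member called, at -3.40 ± 0.50 (SE, edgeR adjusted p = 0.0059), where 2.55% of all genes tested were called, 0.934% higher and 1.61% lower. It was called under each alternative run and without any 1 library. Steap4 was at -1.54 ± 0.40 (SE, edgeR adjusted p = 0.0555), and DESeq2 called it at -1.58 (adjusted p = 0.00547), whereas limma did not (0.114 and 0.0564). Fth1 was at -0.80 ± 0.24 (SE, edgeR adjusted p = 0.0873) and Heph at 0.95 ± 0.40 (0.227), called at 1.24 (0.0357) without colitic Tmem173iΔmye replicate 5 but not without any other 1 library (0.204 to 0.447). Epithelial markers had a median interaction of 0.88, with 3 of 9 called higher by edgeR. For Tfrc the interaction was 0.25 (95% interval -0.85 to 1.35), so its fall in Tmem173fl/fl mice and its uncalled value in Tmem173iΔmye mice were not shown to differ.

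With DSS in the Tmem173fl/fl colon, and between the colitic genotypes, red blood cell markers were called in the same direction as Hmox1, but not with DSS in Tmem173iΔmye mice. In each of these comparisons edgeR called some neutrophil markers in the direction of Hmox1. Red blood cell markers (Hba-a1, Hba-a2, Hbb-bs, Hbb-bt and Slc4a1) summed to 3.76 to 6.44 CPM in the untreated Tmem173fl/fl, 4.79 to 59.3 CPM in the untreated Tmem173iΔmye, 144.4 to 314.1 CPM in the colitic Tmem173fl/fl and 23.1 to 27.5 CPM in the colitic Tmem173iΔmye libraries. Of these 5 reported markers, 5 were called higher with DSS in the Tmem173fl/fl colon and 5 lower in colitic Tmem173iΔmye against colitic Tmem173fl/fl mice by edgeR, where limma called 3 lower between the colitic genotypes. With DSS in Tmem173iΔmye mice, where Hmox1 was called higher, 0 of the 5 were called by edgeR, DESeq2 or limma, 0 had an unadjusted p under 0.05 and their median log2 fold change was -0.05. Without DSS their median log2 difference between the genotypes was 2.77, with 0 called by these tools and 4 at an unadjusted p under 0.05 in edgeR, and the difference of Hmox1 was 0.31. The untreated Tmem173iΔmye replicate 2 had the 59.3 CPM, above each colitic library of that genotype, with Hmox1 at 9.46 CPM. Macrophage markers (Adgre1, Cd68, Csf1r, C1qa and 4 others) summed to 200.2 to 243.3, 218.2 to 282.2, 499.6 to 689.8 and 227 to 537.1 CPM in the same order. Of these 8, 4 were called higher with DSS in Tmem173fl/fl mice by edgeR. It called 0 with DSS in Tmem173iΔmye mice (median 0.66), where 3 had an unadjusted p under 0.05 and DESeq2 called 2 higher and limma 0. Between the colitic genotypes it also called 0 (median -0.36), where 2 had an unadjusted p under 0.05 and DESeq2 called 1 lower and limma 0. Neutrophil markers (S100a8, S100a9, Ngp, Ly6g and 4 others) summed to 46.3 to 105.5, 45.7 to 81.3, 426.6 to 706.8 and 194.9 to 308.3 CPM in the same order. Of 7 tested, edgeR called 7 higher with DSS in Tmem173fl/fl mice. It called 4 higher with DSS in Tmem173iΔmye mice (median 2.96), where DESeq2 called 5 and limma 0. Between the colitic genotypes it called 4 lower (median -2.72), where DESeq2 called 4 lower and limma 0. Ly6g, at 95.2 to 224 CPM and 100.9 to 239.1 CPM, overlapped between the colitic Tmem173fl/fl and the colitic Tmem173iΔmye libraries. It made up much of the sum in the latter, while S100a8 was at 85.9 to 103.9 CPM and 5.46 to 26.1 CPM. Among the colitic Tmem173fl/fl libraries replicate 2 was highest and replicate 3 lowest in Hmox1, in the red blood cell sum and in the macrophage sum, but not in the neutrophil sum. The colitic Tmem173iΔmye replicate 1, with a macrophage sum of 537.1 CPM inside the colitic Tmem173fl/fl range, had Hmox1 at 25.8 CPM. The part of these cells in the Hmox1 result was not tested.

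**Figure D3:**
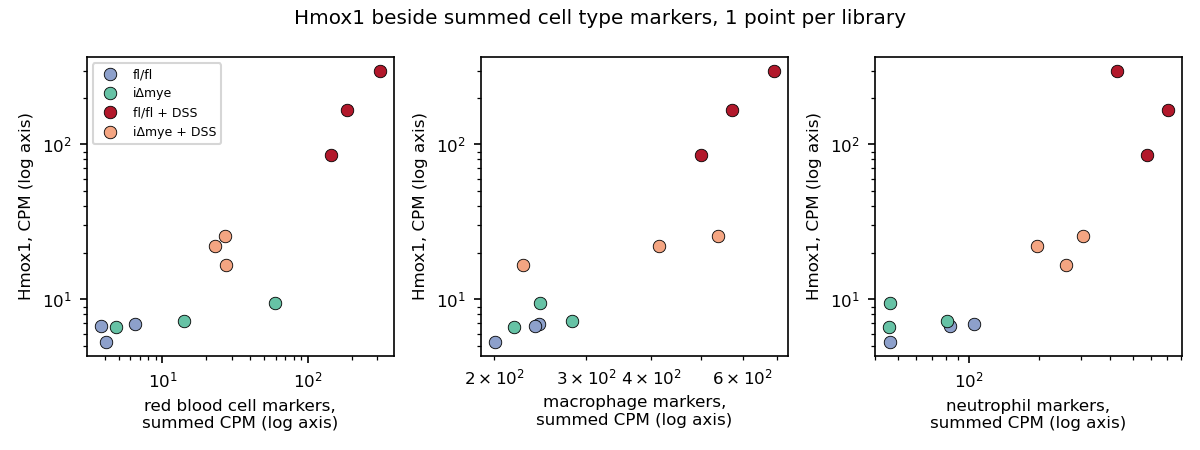
Hmox1 in CPM against the summed CPM of red blood cell, macrophage and neutrophil markers, 1 point per library, both axes logarithmic. The colitic Tmem173fl/fl libraries (fl/fl + DSS) lie highest on the Hmox1 axis and on the red blood cell and neutrophil axes. The colitic Tmem173iΔmye replicate 1 shares their macrophage range at 25.8 CPM of Hmox1.

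Of the other genes of iron transport, storage and regulation, 22 of 27 listed could be tested, and 6 were called higher and 2 lower with DSS in the Tmem173fl/fl colon, and their median log2 fold change was 0.48. Lcn2, which captures bacterial siderophores, was at 2.05, 2.44 and 2.44 CPM untreated and at 857.7, 1019 and 424.5 CPM in colitis, a log2 fold change of 8.44 ± 0.39 (SE, edgeR adjusted p = 7.05e-07). Ltf, lactoferrin of neutrophil granules, rose by 4.88, Cp, the plasma ferroxidase ceruloplasmin, by 4.80, Slc39a14, a transporter for iron that is not bound to transferrin, by 2.62, and Trf, transferrin, by 2.11 on the log2 scale. In Tmem173iΔmye mice 3 of the 22 were called, all higher: Ltf at 4.42, Lcn2 at 4.28 and Cp at 2.11. Between the colitic genotypes Lcn2 was lower by -3.65, Cp by -2.52 and Slc39a14 by -1.86 in Tmem173iΔmye mice, and these 3 were the called genes of the list. Lcn2 was at 83.2, 86.8 and 14.3 CPM in the colitic Tmem173iΔmye libraries. Ltf did not differ beyond its spread, at -0.36 (edgeR adjusted p = 0.687). Each of these 3 calls was lost under limma and without Tmem173fl/fl replicate 1 or 2 or Tmem173iΔmye replicate 2, with edgeR adjusted p = 0.0518 to 0.0938, and those of Lcn2 (0.0504) and Slc39a14 (0.0614) also without Tmem173fl/fl replicate 3. With DSS in Tmem173iΔmye mice limma called 0 of the 22 (pseudocount 0.1, adjusted p = 0.0556 for Ltf, 0.12 for Lcn2 and 0.14 for Cp), and the edgeR calls of Lcn2 and Cp were lost without any 1 untreated library (0.0707 to 0.121). Neutrophil markers were called higher by edgeR with DSS in Tmem173fl/fl mice in 7 of 7 tested. With DSS in Tmem173iΔmye mice edgeR called 4 of the 7 higher (median 2.96), DESeq2 5 and limma 0. Between the colitic genotypes 4 were called lower by edgeR and 0 by limma, and the part of these markers in Lcn2 and Ltf was not tested.

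Of 9 enzymes of heme synthesis, 1 was called higher and 1 lower with DSS in the Tmem173fl/fl colon, close to the 22.5% called among all genes tested, and the median was -0.39. Alas1, the housekeeping first enzyme, was at 161.9, 211 and 173.5 CPM untreated and at 133, 87.5 and 177.7 CPM in colitis, a log2 fold change of -0.39 ± 0.23 (SE, edgeR adjusted p = 0.229). Alas2, its counterpart of the red cell lineage, was at 0.152, 0.203 and 0.376 CPM and at 9.27, 14.7 and 8.17 CPM, a log2 fold change of 5.46 ± 0.42 (SE, edgeR adjusted p = 1.02e-05). Its untreated values were near the count floor, so the size of this fold is uncertain. Uros, uroporphyrinogen synthase, fell by 1.35. In Tmem173iΔmye mice no enzyme was called by edgeR, DESeq2 or limma, and 1 had an unadjusted p under 0.05. Between the colitic genotypes Alas2 was lower by -3.20 in Tmem173iΔmye mice (edgeR adjusted p = 0.0181), and the call was lost without Tmem173fl/fl replicate 1 (0.0719) or Tmem173iΔmye replicate 2 (0.0754) and under limma with a pseudocount of 0.1 (0.0625). The red blood cell sums above were high in the same group, and their part in Alas2 was not tested.

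Several genes that clear hemoglobin and carry heme rose in the same comparison as Hmox1. Of 13, 5 were called higher and 1 lower with DSS in the Tmem173fl/fl colon, and the median was 0.32. Hp, haptoglobin, which binds free hemoglobin, was at 4.70, 10.6 and 7.33 CPM untreated and at 631.5, 667.7 and 324.2 CPM in colitis, a log2 fold change of 6.23 ± 0.39 (SE, edgeR adjusted p = 3.21e-06). Cd163, the macrophage receptor for haptoglobin-bound hemoglobin, rose by 4.45, Lrp1, a receptor for hemopexin-bound heme among many ligands, by 2.04, and the heme transporter Slc48a1 by 1.504 on the log2 scale. Slc46a1, the folate and heme carrier, fell by 1.66, a call lost in 1 fit of all 12 libraries (edgeR adjusted p = 0.0959). In Tmem173iΔmye mice none of the 13 was called by edgeR's main fit or limma, 1 was called by DESeq2, and 2 had an unadjusted p under 0.05 in edgeR. Hp was at 1.67 there (edgeR adjusted p = 0.23). Without the filter (1.66, 0.0283), with the sex pattern (1.49, 0.015) or with the replicate block (1.73, 9.64e-05) edgeR called it. It was also called without colitic replicate 5 (2.18, 0.00917), but not without any other 1 library (0.3405 to 0.546) or by DESeq2 (0.284). Between the colitic genotypes Cd163 was lower by -2.002, Lrp1 by -1.63 and Slc48a1 by -1.14, with edgeR adjusted p = 0.0455 to 0.0495. All 3 missed the threshold under limma and once DESeq2's size factors replaced TMM in edgeR (0.0502 to 0.0548). Cd163 and Lrp1 also missed it without any 1 Tmem173fl/fl library or Tmem173iΔmye replicate 2 (0.0894 to 0.184), and Slc48a1 without Tmem173fl/fl replicate 1 or 2 or any 1 Tmem173iΔmye library (0.0569 to 0.193). Hp was at 153.8, 99.4 and 20.8 CPM in the colitic Tmem173iΔmye libraries, a log2 difference of -2.57 ± 0.63 (SE, edgeR adjusted p = 0.0683), and it was called without replicate 5 (-2.10, 0.0392) or replicate 1 (-3.20, 0.0436) of that group, but not without any other 1 library (0.0855 to 0.204). DESeq2 (adjusted p = 0.000226), edgeR without the filter (0.00999) and 1 edgeR fit of all 12 libraries (0.0185) also called Hp, and limma did not (0.118 and 0.153).

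**Figure D4:**
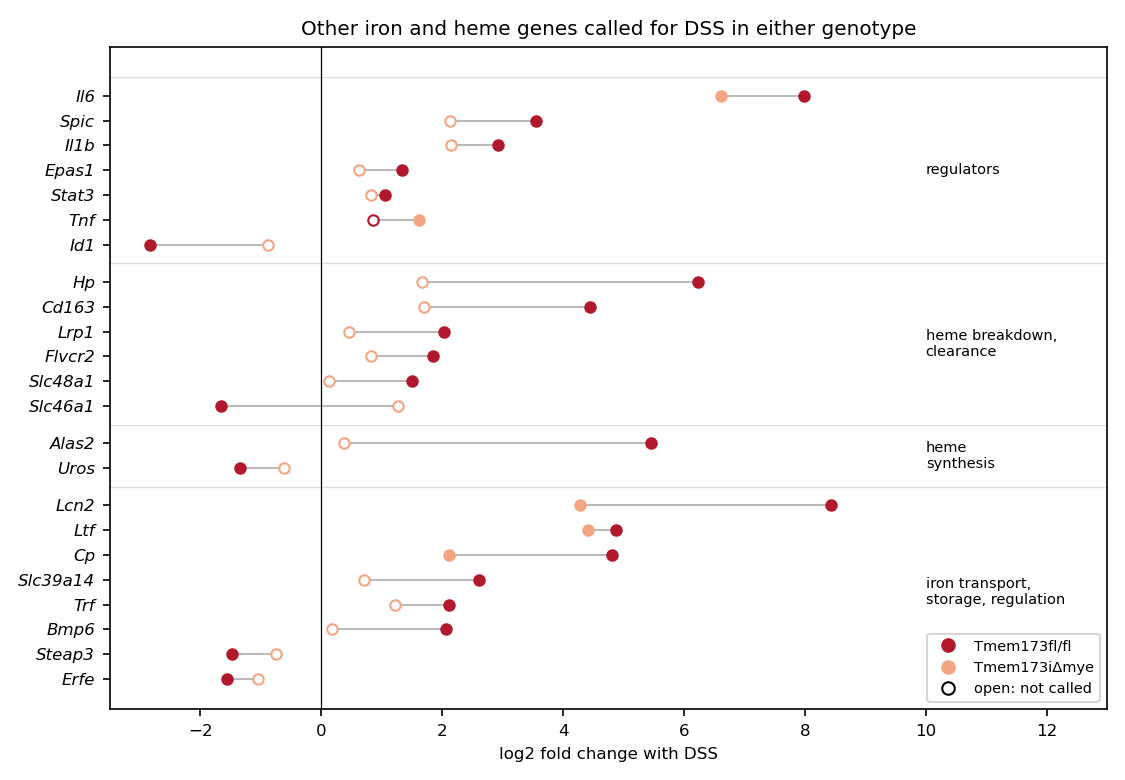
Log2 fold changes with DSS of the pathway genes called in at least 1 genotype, with Tmem173fl/fl in red, Tmem173iΔmye in orange, open circles not called and a grey line joining the 2 values of a gene. Lcn2 (8.44 and 4.28), Hp (6.23 and 1.67) and Alas2 (5.46 and 0.37) show wide gaps, and Ltf (4.88 and 4.42) a narrow one. Alas2 was near the count floor in untreated Tmem173fl/fl libraries.

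Known upstream regulators of the members were measured as well. Of 13, 5 were called higher and 1 lower with DSS in the Tmem173fl/fl colon, and the median was 0.86. Il6, the cytokine that induces hepcidin and acts through STAT3, had 0 to 2 counts in each untreated library and 207 to 717 counts in the colitic Tmem173fl/fl ones. Il1b rose by 2.93 and Epas1, the hypoxia factor that drives Slc11a2, Cybrd1 and Slc40a1 in the duodenum, by 1.34 on the log2 scale. Id1, a target of the BMP signal that also drives hepcidin, fell by 2.84. Bmp6, a ligand of that signal counted in the iron transport list and not among these 13, rose by 2.06 (edgeR adjusted p = 0.000152). In Tmem173iΔmye mice edgeR called Il6 and Tnf, both higher, where DESeq2 called 5 higher, limma 1, and 9 of the 13 lay higher at an unadjusted p under 0.05 in edgeR. Tnf was at 1.62 (edgeR adjusted p = 0.036), a call lost under limma (0.117 and 0.0779) and without any 1 untreated library or colitic replicate 1 or 2 (0.0671 to 0.212). Between the colitic genotypes Il6 was lower by -2.36 in Tmem173iΔmye mice (edgeR adjusted p = 0.0346), with 66 to 76 counts, and this call was lost under limma (0.109 and 0.126) and without Tmem173fl/fl replicate 1 or 3 or Tmem173iΔmye replicate 2 or 5 (0.0796 to 0.135). No regulator was called higher by edgeR in this comparison, but 4 lay higher and 2 lower at an unadjusted p under 0.05, and DESeq2 called 2 higher and 1 lower. The 4 were Id1 at 1.94 (edgeR adjusted p = 0.082), Tnf at 1.18 (0.0969), Smad4 at 0.53 (0.23) and Hif1a at 0.52 (0.174), named after their values were seen. Epas1 was at 432.6 ± 52.58 CPM (SD, n = 3) in the colitic Tmem173fl/fl libraries. In the colitic Tmem173iΔmye ones it was at 226.6 ± 59.75 CPM, a difference not called by edgeR. Ltf, Hp, Il6 and the other genes of this paragraph and the 3 before it were called against the same 22.5%, 2.08% and 2.81% of all genes tested.

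The genes whose log2(FPKM + 0.1) followed each member most closely over the 12 libraries are given as a description, since the libraries share treatment, cell makeup and scaling. For Hmox1 these were Lix1l (Pearson's r = 0.988), Matn2 (0.987) and Fam219a (0.987). For Steap4 they were Pros1 (0.99), the neutrophil chemokine Cxcl1 (0.986) and Qk (0.985), and for Fth1 Tcp11l2 (0.988), Ccm2l (0.988) and Inhbb (0.988). Heph was closest to Cyfip1 (0.97), the intestinal cadherin Cdh17 (0.968) and Slc25a13 (0.961), Tfrc to Tmed2 (0.944) and Slc40a1 to Fam204a (0.911). Slc11a2 was closest to Mfsd10 (0.964), Ftl1 to B9d1os (0.934) and Cybrd1 to Castor1 (0.927).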

How the data were processed

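Whole-colon poly(A) RNA of 12 mouse libraries was analysed. Per the labels and methods, the authors extracted RNA with TRIzol, built NEBNext libraries, filtered reads with fastp, aligned them to GRCm38/mm10 with HISAT2 2.0.5 and counted genes with featureCounts 1.5.0-p3 (strand setting not given in the sources used here). The table deposited by the authors holds counts per gene and FPKM, which scale these counts by gene length and library total. It also holds the authors' own comparisons (normalised group means as a signal, log2 fold changes and p-values), which were not used. The total of 13823237 to 18718915 counts per library limits genes below about 3 counts, taken as the floor.

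Genes reaching an FPKM of 0.1 in 3 or more libraries (24102 of 54532) were tested with edgeR 4.0.16 (TMM, quasi-likelihood, R 4.3.3), each comparison on its own groups and the interaction on all 12 libraries, with Benjamini-Hochberg adjustment over all genes tested. Standard errors and 95% intervals come from this fit, and CPM were scaled by TMM over the 12 libraries. The code was tested on simulated data. Alternatives were DESeq2 1.42.0 and its size factors, limma 3.58.1 on log2(FPKM + 0.1) or + 1, no filter, adjusted p alone, unadjusted p with the fold threshold, the replicate block, the sex pattern, 1 fit of all libraries, and each library left out. Sequences came from GENCODE M21 and RefSeq (GRCm38.p6).

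The members and gene lists were chosen with earlier results of these data known. From each pathway list up to 4 called genes of mean FPKM of at least 1 were named per comparison by size of change, plus Alas1, Alas2, Hmox2, Trf, Lcn2 and Hp. Bmp6, Smad4 and Hif1a were named outside this rule. For each member the 3 genes most correlated with it were found, and Slc48a1 and Tnf follow from the same rule. A further marker fixed for the red blood cell list is not reported here, and the list's sums and counts leave it out.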

Additional observations from a re-analysis of the deposited data

Results flagged for a closer look

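The response to DSS differed between the genotypes, by edgeR's interaction test over all 12 libraries, for Hmox1 and 7 genes of the pathway lists, and in each it was smaller in Tmem173iΔmye mice. The interaction in log2 units was -5.02 for Alas2, -4.49 for Hp, -4.09 for Lcn2, -3.40 for Hmox1, -2.69 for Cd163, -2.63 for Cp, -1.84 for Slc39a14 and -1.30 for Slc48a1, where 2.55% of all genes tested were called. The untreated groups enter these values. In untreated Tmem173fl/fl libraries Alas2 was near the count floor, at 0.24 ± 0.12 CPM (SD, n = 3), so the size of its interaction is uncertain. Without DSS, Hp was higher in Tmem173iΔmye mice by 1.92 (10.8 to 42.4 against 4.70 to 10.6 CPM), Alas2 by 1.84 and Cd163 by 0.70, each at an unadjusted p under 0.05 but at an edgeR adjusted p of 1, while Lcn2 differed by 0.45, Hmox1 by 0.31, Slc48a1 by 0.18, Cp by 0.13 and Slc39a14 by -0.0031. Hmox1, Lcn2 and Slc39a14 were called without any 1 library. Without untreated Tmem173fl/fl replicate 1 the edgeR adjusted p was 0.0524 for Alas2, 0.0524 for Cd163, 0.0502 for Cp and 0.0533 for Hp, and Hp also missed the threshold without untreated Tmem173fl/fl replicate 3 (0.0532). Slc48a1 missed it without any 1 of the 6 untreated libraries, colitic Tmem173fl/fl replicate 1 or 2, or colitic Tmem173iΔmye replicate 2 (0.0523 to 0.0824). With limma (pseudocount 0.1) Cd163 (adjusted p = 0.0524), Hp (0.0606) and Slc48a1 (0.0844) missed it.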

How the results depend on the processing

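Of 46 gene values with a call, 0 changed sign under any alternative run, and 11 of 45 without a call did. The number of members called with DSS in Tmem173fl/fl mice was 6, against 5 with limma (either pseudocount) or the sex pattern as a covariate (Cybrd1 lost), 9 with adjusted p alone (Slc40a1, Slc11a2 and Ftl1 added), and 5 to 6 with 1 library left out. With DSS in Tmem173iΔmye mice it was 3, against 0 with limma at a pseudocount of 0.1 (at 1, Steap4 and Fth1 were kept and Hmox1 lost) and 1 to 3 with 1 library left out. Between the colitic genotypes it was 1, against 0 with limma (either pseudocount), 2 with DESeq2, unadjusted p with the fold threshold kept or 1 fit of all 12 libraries (Cybrd1 added), 2 with adjusted p alone (Steap4 added), 3 with the sex pattern as a covariate (Steap4 and Heph added), and 0 to 2 with 1 library left out. In this comparison the covariate is no separate check, since it amounts to leaving out Tmem173iΔmye replicate 5 (Steap4 at -1.11 in both, Heph at 1.12 in both with adjusted p = 0.0497 and 0.052), and with DSS in Tmem173fl/fl mice it amounts to leaving out untreated replicate 3. For the interaction it was 1, against 2 with DESeq2, without the filter or with unadjusted p and the fold threshold kept (Steap4 added each time), and 1 to 2 with 1 library left out. Same-numbered libraries did not deviate together (correlations of -0.08 to 0.11 over 10 pairs). With 3 libraries per group this check cannot exclude that the numbers pair the samples. With the replicate number as a block, 4 members were called between the colitic genotypes (Hmox1, Steap4 and Cybrd1 lower, Heph higher) and 4 with DSS in Tmem173iΔmye mice (Tfrc added at -1.49). In both comparisons replicates 3 and 5 have no partner, so the blocked values rest on replicates 1 and 2 of each group. The block and the loss of these libraries cannot be told apart there.

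Uncalled values that changed sign are given here. With the replicate block, the Tfrc interaction was -0.050 and Alas1 with DSS in Tmem173iΔmye mice 0.17. Leaving out 1 library at a time, the genotype difference without DSS ranged from -0.17 to 0.18 for Slc40a1, -0.12 to 0.027 for Slc11a2, -0.12 to 0.66 for Tfrc, -0.033 to 0.16 for Fth1, -0.084 to 0.072 for Ftl1 and -0.21 to 0.015 for Heph. The DSS change in Tmem173iΔmye mice ranged from -0.030 to 0.14 for Ftl1, -0.58 to 0.094 for Heph, -0.15 to 0.15 for Alas1 and -0.22 to 1.798 for Alas2, and the Tfrc interaction from -0.058 to 0.73. Depth limits Hamp, for which no alternative can give a fold.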
